A study of Rattus norvegicus with 50 samples.

Results

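The kidney medulla of obese ZSF1 rats given MK-8722 at 10 mpk was compared with that of obese ZSF1 rats given the same compound at 1 mpk, 5 libraries each, 10 of the 50 libraries in the series. The libraries were chosen by their labels: kidney medulla, obese, MK-8722, and one of the 2 doses, in the dose unit the labels use. All rats of the series carry the ZSF1 background, and treatment lasted 28 weeks. The labels also give an age of 20 weeks, which is shorter than the treatment, so the age was not used. For context, the text gives levels in medulla of lean ZSF1 rats on vehicle, obese ZSF1 rats on vehicle and obese ZSF1 rats on enalapril at 10 mpk, and the same dose comparison in kidney cortex, again with 5 libraries per group. The labels do not state whether each library is a separate rat, so the tests weigh differences only against the variation among these libraries, which may be technical.

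AMP-activated protein kinase (AMPK) is a complex of a catalytic subunit with regulatory beta and gamma subunits that senses a falling cellular energy charge, restrains lipid and sterol synthesis and favours fatty acid oxidation and glucose uptake. MK-8722 is a small molecule that directly activates all forms of the AMPK complex. The obese ZSF1 rat lacks a working leptin receptor and develops diabetes, hypertension and progressive kidney disease, while its lean counterpart serves as the control strain. The medulla holds the loops of Henle and collecting ducts that concentrate the urine, works at low oxygen, and so depends on tight control of energy use. The question of the comparison is which transcripts of the medulla differ between the high and the low dose.

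The deposited table holds FPKM, a read level corrected for transcript length and library size, for 32545 Ensembl rat gene IDs without gene names. Of these IDs, 0 matched the reference gene table, so genes are given by ID, their genome positions and pathways were not analysed here, and the label of the tissue was not checked against marker genes. An ID was tested where its FPKM reached 1 in 5 or more of the 10 libraries, which left 13509 IDs. Differences are 10 minus 1 mpk on log2(FPKM + 0.5), a scale that understates changes of low IDs. Each was tested on the deposited values and again after every library had been divided by its median ratio to the other medulla libraries, called rescaled below. An ID was called where limma's adjusted p was under 0.05 over all tested IDs.

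The leading IDs were the largest rescaled changes among IDs called on both scales whose doses did not overlap and whose higher mean reached 2 FPKM, which 86 rises and 96 falls met. The first rise was ENSRNOG00000010932. Its FPKM at 10 mpk was 19.2, 24.1, 36.8, 27.6 and 28.8 in replicates 1, 2, 3, 5 and 6, against 10.9, 9.94, 7.14, 6.30 and 3.44 in replicates 1, 2, 4, 6 and 7 at 1 mpk. Every library at 10 mpk lay above every library at 1 mpk, and the mean was 3.62-fold higher. The log2 fold change was 1.85 ± 0.281 (SE) on the deposited values (limma, adjusted p = 0.001) and 1.98 ± 0.291 after rescaling (limma, adjusted p = 0.000559). The 10 mpk libraries overlapped the lean range: lean rats had 23.1 ± 2.21 FPKM and the 10 mpk group 27.3 ± 6.48 (SD, n = 5). Obese vehicle rats had 8.46 ± 3.89 FPKM and the enalapril group 9.46 ± 2.53, beside 7.54 ± 2.98 in the 1 mpk group (SD, n = 5), and the ranges of these 3 groups overlapped. This ID was lower in obese than in lean vehicle medulla by a rescaled log2 fold change of -1.92 (limma, adjusted p = 6.95e-06). The vehicle libraries are outside the dose contrast but shared its fit, and so its estimate of spread. With only the 10 compared libraries in the fit its dose call held (limma, adjusted p = 0.0195 as deposited and 0.0149 rescaled).

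The second rise was ENSRNOG00000028985, which stayed far below its lean level. Its FPKM at 10 mpk was 6.47, 3.48, 6.89, 15.8 and 2.43 in replicates 1, 2, 3, 5 and 6, whereas the 1 mpk libraries had 1.46, 1.33, 1.83, 0.701 and 1.86 in replicates 1, 2, 4, 6 and 7. The groups did not overlap, as the rule required, but the 10 mpk libraries were spread widely, with replicate 5 the highest. Lean medulla had 23.0 ± 3.26 FPKM and obese vehicle medulla 1.58 ± 0.926 (SD, n = 5). The log2 fold change between the doses was 1.74 ± 0.330 (SE) as deposited (limma, adjusted p = 0.00678) and 1.84 ± 0.351 rescaled (limma, adjusted p = 0.00611). With only the 10 libraries of the comparison in the fit the call was lost, with limma adjusted p = 0.0783 and 0.0806 on the deposited and rescaled values.

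The first fall by the same rule was ENSRNOG00000007552, an ID of low abundance. Its FPKM at 1 mpk was 2.51, 1.03, 2.68, 2.89 and 2.43 in replicates 1, 2, 4, 6 and 7, while at 10 mpk it was 0.0568, 0.0801, 0.159 and 0.497 in replicates 1, 2, 3 and 6 and listed at 0 in replicate 5. It was listed at 0 in all 5 lean libraries. In obese vehicle medulla it ranged from 0.443 to 5.22 FPKM, and with enalapril it was listed at 0 in 1 library and lay between 0.219 and 0.295 in the other 4. All 1 mpk libraries were above all 10 mpk libraries, as the rule required, whereas the lowest obese vehicle library was below the highest 10 mpk library. The log2 fold change between the doses was -2.08 ± 0.310 (SE, limma, adjusted p = 0.000751) and -1.99 ± 0.294 after rescaling (limma, adjusted p = 0.000428). This ID reached 1 FPKM in all 5 libraries at 1 mpk and in 0 at 10 mpk, so it passed the filter on low values only through the group where it was high. Without the filter it was called as well (limma, adjusted p = 0.00101 as deposited and 0.000625 rescaled). That run used the same values by which the ID was picked, so it is no separate support. The size of its change depends on the pseudocount at such low levels, and ranged from -3.42 to -1.49 over the alternatives on the deposited values.

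The second fall was ENSRNOG00000013062, which dropped below every other medulla group. Its FPKM was 8.70, 5.42, 6.68, 11.2 and 5.78 at 10 mpk (replicates 1, 2, 3, 5 and 6) and 18.6, 26.6, 19.0, 18.8 and 41.5 at 1 mpk (replicates 1, 2, 4, 6 and 7). The groups did not overlap, as the rule required, and replicate 7 stood highest at 1 mpk. Means were 26.5 ± 5.72 FPKM in lean, 41.5 ± 10.9 in obese vehicle and 116 ± 30.7 in enalapril medulla, against 24.9 ± 9.87 at 1 mpk and 7.55 ± 2.40 at 10 mpk (SD, n = 5). The 1 mpk mean was 3.30-fold that at 10 mpk, with a log2 fold change of -1.63 ± 0.241 (SE, limma, adjusted p = 0.000866), or -1.50 ± 0.265 rescaled (limma, adjusted p = 0.00365). The rescaled contrast of obese and lean vehicle did not pass for this ID, at 0.21 (limma, adjusted p = 0.527), while on the deposited values obese vehicle was higher by 0.62 (limma, adjusted p = 0.0256).

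**Figure D1:**
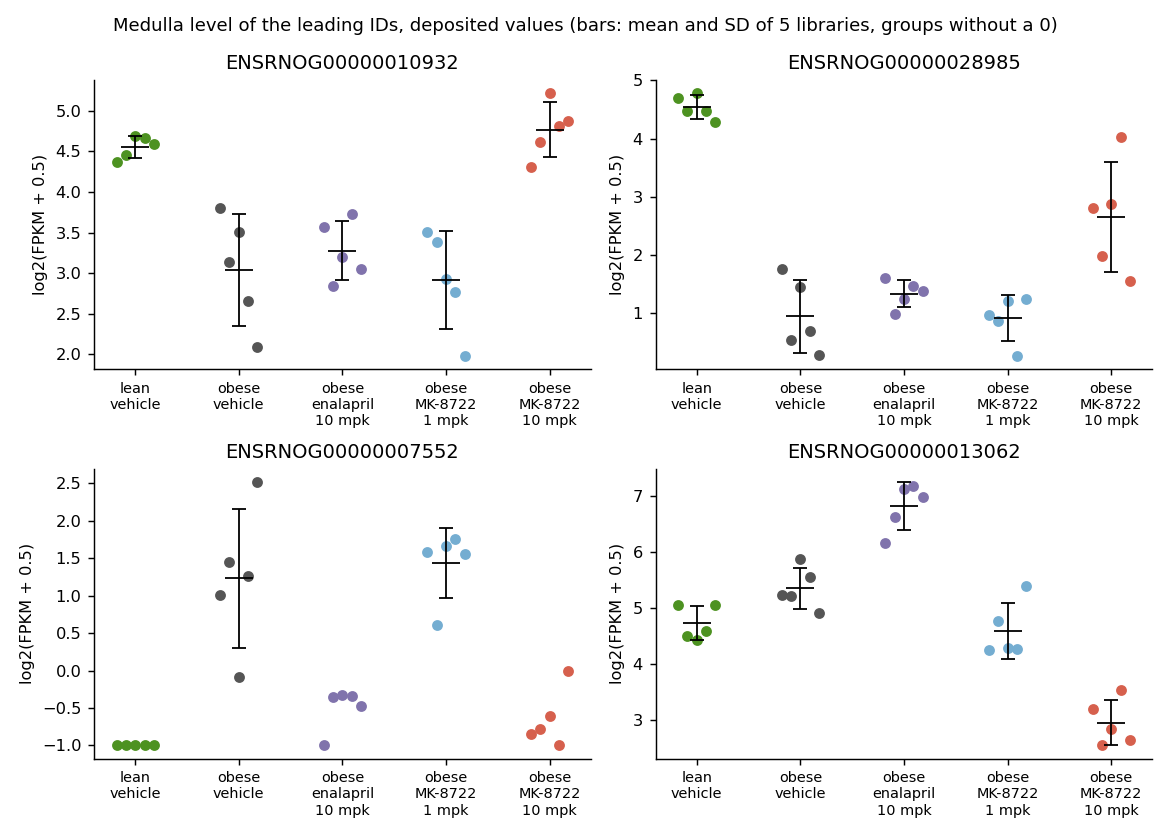
Level of the 4 leading IDs in the 5 medulla groups on log2(FPKM + 0.5) of the deposited values, 1 point per library; bars give the mean and SD of 5 libraries and are left out where a library is listed at 0. The 4 IDs were picked for having no overlap between the 10 mpk and 1 mpk libraries, so its absence here is not a finding. Among the rises, only the level of ENSRNOG00000010932 at 10 mpk (27.3 ± 6.48 FPKM) overlaps the lean level (23.1 ± 2.21).

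Across all tested IDs, falls outnumbered rises on the deposited values. There 145 IDs were higher (1.07% of those tested) and 708 lower (5.24%) at 10 than at 1 mpk, 6.31% in all. The median log2 fold change over all 13509 IDs was -0.13, and 76.9% of them were below 0. On this scale most tested IDs thus lay slightly lower at 10 mpk. After rescaling, which brought the median to -0.01, 249 IDs were higher (1.84%) and 166 lower (1.23%), 3.07% in all. With each library set to an equal sum without its 6 most abundant IDs, 163 were higher and 413 lower. The direction of the majority differed with the scaling, with rises making up 17.0% of the calls as deposited, 28.3% on the equal sum and 60% after median-ratio rescaling.

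**Figure D2:**
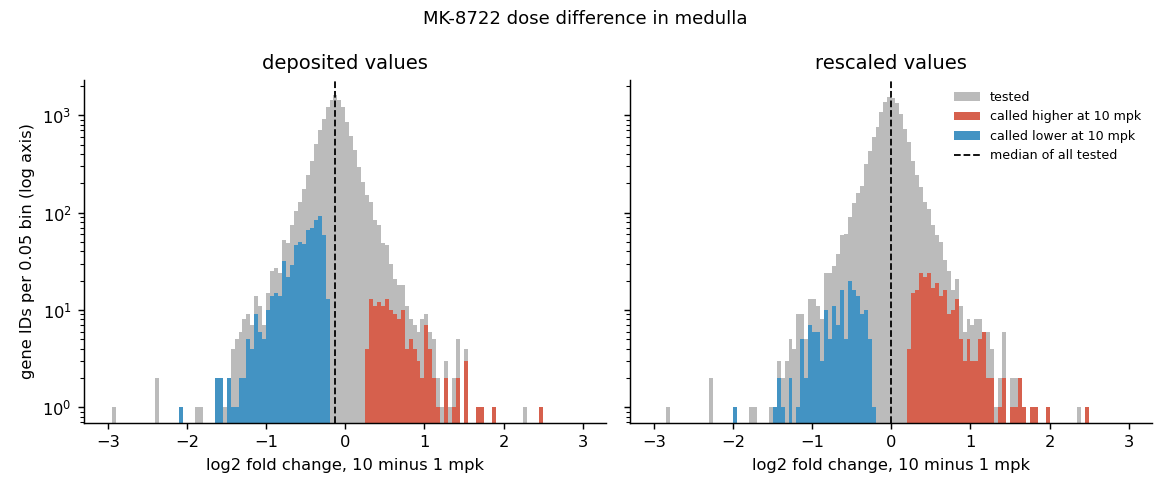
Number of gene IDs by log2 fold change (10 minus 1 mpk, bins of 0.05, log count axis) on deposited and rescaled values, with called IDs in colour and the median of all tested IDs as a dashed line. The whole distribution is centred at -0.13 as deposited and at -0.01 after rescaling.

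The IDs called on both scales are the ones followed from here. There were 143 such rises and 166 such falls, 2.29% of the IDs tested. Of the 708 deposited falls, 542 were no longer called after rescaling and 0 turned into rises; of the 145 deposited rises, 2 were lost. Among these 309 IDs changes were mostly moderate. The rises had a median rescaled log2 fold change of 0.71, with a middle range of 0.56 to 0.96 between the quartiles, and 33 of 143 reached 2-fold. The falls had a median of -0.61, with quartiles of -0.82 and -0.46, and 22 of 166 reached 2-fold. The 10 deposited values did not overlap between the doses for 89 of the rises and 100 of the falls, where 120 (0.888%) of all tested IDs were entirely higher and 538 (3.98%) entirely lower at 10 mpk, 4.87% in all. On rescaled values 324 IDs (2.4%) were entirely higher and 218 (1.61%) entirely lower, 4.01% in all. Calls and separation of the groups rest on the same values. Among all tested IDs, 3 passed the filter only through the 10 mpk libraries and 7 only through the 1 mpk libraries. All 3 of the former were rises called on both scales, and 4 of the 7 latter were falls called on both. Such IDs could enter only by differing. As these are bulk samples, fewer cells of a type and less RNA per cell cannot be told apart.

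Called IDs were found at every level of expression. IDs with a mean of 100 FPKM or more over the medulla libraries numbered 497, of which 24 (4.83%) rose and 15 (3.02%) fell on both scales. The 4387 IDs with a mean under 5 FPKM held 32 rises (0.729%) and 54 falls (1.23%). Precision differed as well, with a median standard error of the rescaled log2 fold change of 0.106 in the highest class and 0.166 in the lowest. The 2694 IDs between 20 and 100 FPKM had the smallest error, 0.0945, and held 32 rises (1.19%) and 36 falls (1.34%).

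How the called IDs behaved between lean and obese rats was read from the vehicle libraries, which are outside the dose contrast but in the same fit. On rescaled values 121 of the 143 rises (84.6%) were lower in obese than in lean vehicle medulla and 4 were higher (limma, adjusted p under 0.05), where 28.3% of all tested IDs were lower and 26.4% higher. The falls showed the mirror image: 155 of 166 (93.4%) were higher in obese vehicle medulla and 2 lower. The median log2 difference between obese and lean vehicle was -0.96 for the rises and 1.33 for the falls, beside -0.01 for all tested IDs. On the deposited values the numbers were 102 of 143 rises lower and 162 of 166 falls higher, where 10.9% of all IDs were lower and 58.1% higher. Over all 13509 IDs the dose difference and the obesity difference correlated with a Pearson r of -0.57 (Spearman rho -0.60) after rescaling. This is a correlation across IDs measured in libraries that share a scaling, a description with no test, and IDs are not independent replicates. The contrasts share no library, although a fit of all medulla libraries lends both the same estimate of spread.

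The 2 doses stood at different distances from the lean level in every library. For the 143 rises, the median log2 level relative to the lean mean was between -1.08 and -0.75 in the 1 mpk libraries, and between -0.42 and -0.04 in the 10 mpk libraries. Obese vehicle libraries ranged from -1.19 to -0.80, around the 1 mpk values. For the 166 falls the 1 mpk libraries lay between 1.23 and 1.45 above lean, and the 10 mpk libraries between 0.49 and 0.98. Obese vehicle libraries lay between 1.08 and 1.49. Because the IDs were picked for differing between the doses, the gap between 1 and 10 mpk in these medians is a description, not a test. At 10 mpk 98 of the 143 rises still had a mean below lean, and 16 of the 166 falls had a mean below it. Enalapril libraries were at -0.71 to -0.46 for the rises, between the ranges of the 2 doses, and at 0.81 to 1.12 for the falls, overlapping the 10 mpk range. They were not contrasted with either dose, but as members of the 25-library fit they shared in its spread and scaling.

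**Figure D3:**
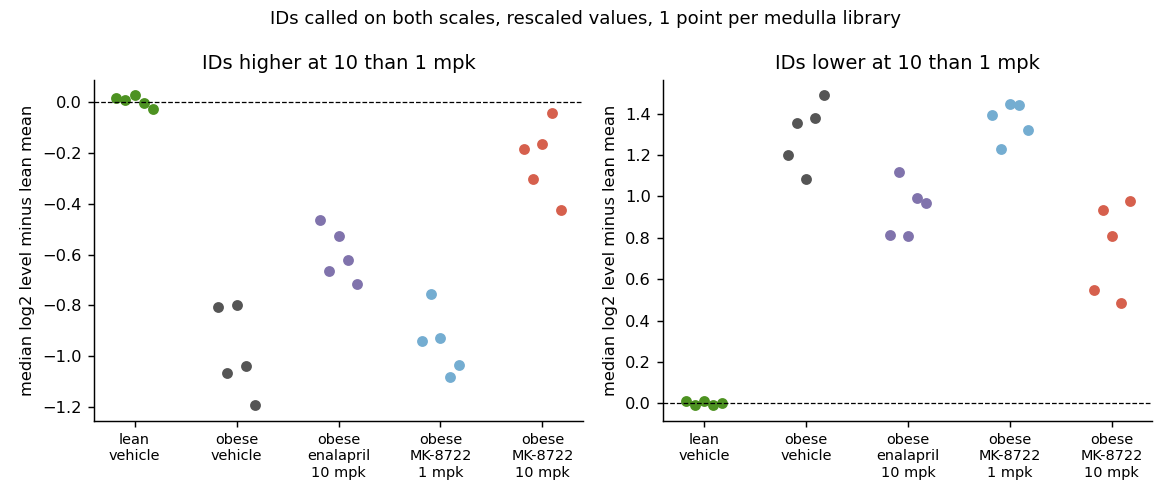
Median rescaled log2 level of the 143 rises (left) and 166 falls (right) relative to the lean mean, 1 point per medulla library in the 5 groups, with the dashed line at the lean mean. Libraries at 10 mpk lie between -0.42 and -0.04 for the rises and between 0.49 and 0.98 for the falls, nearer to lean than those at 1 mpk.

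In cortex, measured in other libraries, the same dose comparison moved most of these IDs in the same direction. Cortex libraries were rescaled by their median ratio over all 50 libraries, while the medulla calls kept the medulla scale. After rescaling, 133 of the 143 medulla rises had a positive log2 fold change in cortex, with a median of 0.47. Of the rises, 76 (53.1%) were called higher there, where 5.27% of all the IDs were. Of the 166 falls, 75 (45.2%) were called lower in cortex, against 4.17% of all, and the median was -0.49. After rescaling 1 rise was called lower and 1 fall higher in cortex. On the deposited cortex values 61 rises were called higher and 2 lower, where 2.01% of all IDs were higher, and 130 falls were called lower, where 28.3% of all IDs were. Over the 13509 IDs the dose differences of the tissues correlated with a Pearson r of 0.45 (Spearman rho 0.44), a description across IDs. Cortex and medulla libraries may come from the same rats, which the labels do not state. Deviations from the group means of same-numbered medulla and cortex libraries correlated across IDs with r of 0.12 to 0.34 over 3 pairs at 10 mpk and -0.02 to 0.28 over 5 pairs at 1 mpk. At 10 mpk, medulla replicates 5 and 6 correlated best with the cortex library of their own number, at 0.26 and 0.34. Medulla replicate 2 did not, at 0.35 with cortex replicate 6 and at 0.12 with its own number. At 1 mpk, replicates 2 and 7 correlated best with their own number, at 0.28 and 0.12, and replicates 1, 4 and 6 did not. Whether the tissues share rats was not tested.

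**Figure D4:**
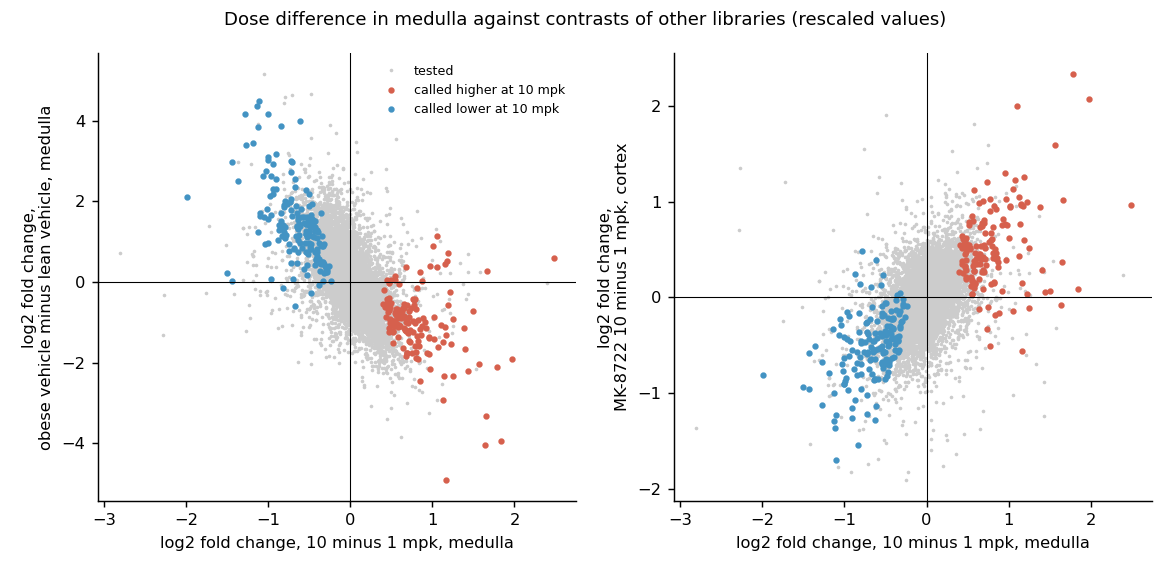
Rescaled log2 fold change between the MK-8722 doses in medulla (horizontal axes) against obese minus lean vehicle in medulla (left) and against the MK-8722 dose difference in cortex (right), 1 point per tested ID, with IDs called on both scales in colour. The rises lie mostly below 0 in the left panel (median -0.96) and above 0 in the right panel (median 0.47). The falls do the opposite (1.33 and -0.49). Cortex values were rescaled over all 50 libraries.

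The difference between the tissues was tested itself as an interaction in a fit of all 50 libraries. On values rescaled over all 50 libraries, the dose difference was called different in medulla and cortex for 22 of 13965 IDs (0.158%). It was more positive in medulla for 8 of them and more negative for 14 (limma). Of these 22 IDs, 8 were among the 309 called on both scales in medulla, where 2.29% of the IDs tested in medulla were. The interaction contains the medulla dose difference by which the 309 were picked, so this overlap is partly built in. ENSRNOG00000010932 rose in cortex from 1.14 ± 0.370 to 5.47 ± 1.21 FPKM (SD, n = 5), and its interaction was -0.09 ± 0.367 (SE, limma, adjusted p = 0.967). ENSRNOG00000028985 was near 0 in cortex, at no more than 0.120 FPKM in every 1 mpk library and at 0 to 0.507 FPKM at 10 mpk. Its interaction of 1.74 ± 0.505 did not pass (SE, limma, adjusted p = 0.224). ENSRNOG00000007552 lay between 0.674 and 1.23 FPKM at 1 mpk and between 0.165 and 0.596 FPKM at 10 mpk in cortex, a call on the deposited values (-0.92, limma, adjusted p = 0.0203) but not after rescaling (-0.81, limma, adjusted p = 0.0592). ENSRNOG00000013062 went from 55.8 ± 9.74 to 28.0 ± 14.7 FPKM (SD, n = 5), a call on the deposited values (-1.17, limma, adjusted p = 0.0127) but not after rescaling (-0.93, limma, adjusted p = 0.0878). The interactions of ENSRNOG00000007552 and ENSRNOG00000013062 were -1.12 and -0.55 (limma, adjusted p = 0.357 and 0.75). The median standard error of the interaction was 0.172 and the smallest one called was 0.45 in size. Smaller differences between the tissues may have gone uncalled, as may larger ones for IDs with a wider error. The count of 22 became 49 without cortex 10 mpk replicate 2, 14 without cortex 1 mpk replicate 4, 11 without medulla 10 mpk replicate 3 and 14 without medulla 1 mpk replicate 7. With only the 4 MK-8722 groups in the fit it was 4.

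The counts of calls rested on single libraries. Of the IDs called on both scales, 41 of 143 rises and 37 of 166 falls kept their call with each compared library left out in turn. The leading IDs were among them, but they had been picked for large changes without overlap in these same libraries. The deposited count of 853 became 235, 1436, 466, 167 and 1649 without 10 mpk replicates 1, 2, 3, 5 and 6, and 325, 172 and 385 without 1 mpk replicates 4, 6 and 7. The rescaled count of 415 became 203, 660, 249, 175 and 719 without the same 10 mpk libraries, and 213, 150 and 269 without the same 1 mpk libraries. The 309 calls on both scales became 133, 482, 174, 108 and 550 without the 10 mpk libraries, and 204, 152, 103 and 176 without 1 mpk replicates 1, 4, 6 and 7. On each scale the number fell most at 10 mpk without replicate 5 and rose most without replicate 6. Those were also the libraries nearest to and farthest from lean for the rises, at -0.04 and -0.42. As the rises were picked with these libraries in the contrast, this match is a description, not a test.

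**Figure D5:**
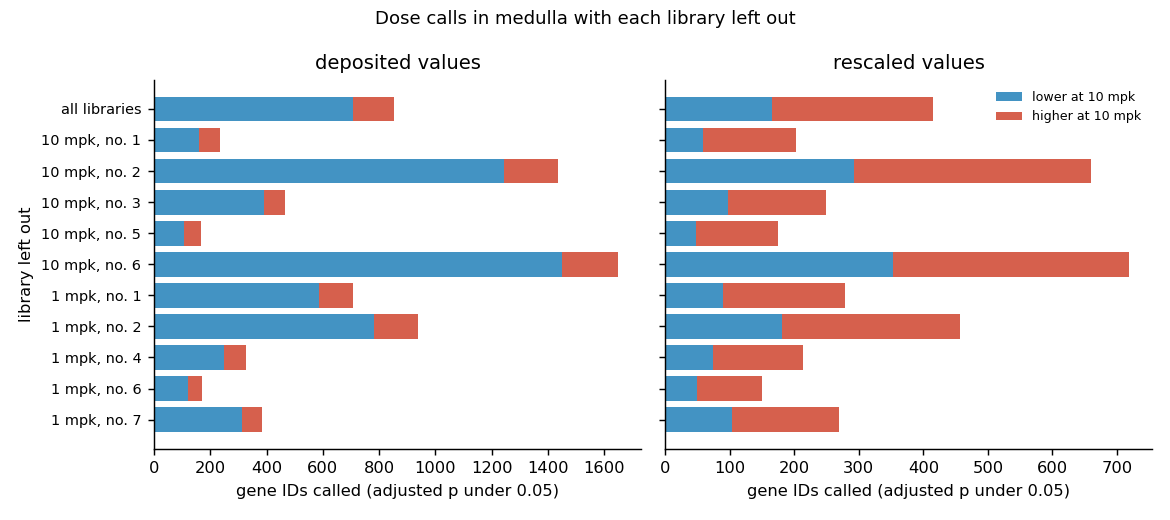
Number of gene IDs called lower (blue) and higher (red) at 10 than at 1 mpk with all libraries and with each of the 10 compared libraries left out of the fit, on deposited and rescaled values. The deposited count runs from 167 without 10 mpk replicate 5 to 1649 without 10 mpk replicate 6, against 853 with all libraries.

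The choice of libraries in the fit also moved the counts. With only the 10 MK-8722 libraries in the fit, 76 IDs were called on the deposited values, 37 higher and 39 lower, and 106 after rescaling, 75 higher and 31 lower. The median SD of an ID on the rescaled log2 scale was 0.206 at 10 mpk, 0.167 at 1 mpk, 0.161 in obese vehicle, 0.152 in lean and 0.200 in enalapril medulla. Calls kept on both scales under every alternative numbered 21 rises and 13 falls, among them ENSRNOG00000010932, ENSRNOG00000007552 and ENSRNOG00000013062. Of these, ENSRNOG00000007552 had passed the filter only through the group where it was high. All 21 of the kept rises were lower in obese than in lean vehicle medulla (limma, rescaled), and 11 of the 13 kept falls were higher, with 0 the other way. Of all tested IDs, 28.3% were lower and 26.4% higher. These obesity calls use the spread of the same fit, so IDs kept for holding their dose call may pass more readily than all tested IDs. In cortex 16 of the 21 rises were called higher and 1 lower, and 7 of the 13 falls were called lower, where 5.27% of all tested IDs were higher and 4.17% lower.

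After adjustment the doses did not differ past the threshold in any of 5 library measures. The median ratio was 0.993 ± 0.0674 at 10 mpk and 1.09 ± 0.0410 at 1 mpk (SD, n = 5), with overlapping ranges of 0.897 to 1.06 and 1.05 to 1.13 (exact two-sided permutation p = 0.0476, adjusted over 5 measures 0.119). The number of IDs with an FPKM of at least 1 was 13290 ± 229 at 10 mpk and 13640 ± 155 at 1 mpk (exact permutation p = 0.0159, adjusted 0.0794). Relative depth was 0.842 ± 0.125 and 0.773 ± 0.143, and the share of summed FPKM in the 6 most abundant IDs 57.6% ± 1.56 and 57.3% ± 2.87 (SD, n = 5), with adjusted exact permutation p of 0.565 and 0.833. Total FPKM was 881942 ± 18681 and 900848 ± 43684 (SD, n = 5, adjusted exact permutation p = 0.565). The smallest p that 5 against 5 libraries can give is 0.00794. The lowest median ratios and numbers of detected IDs belonged to 10 mpk replicates 5 and 1, at 0.897 and 0.953 and at 13008 and 13079. Without either library the calls fell on the rescaled values too. They also fell without 10 mpk replicate 3 and without 1 mpk replicates 1, 4, 6 and 7. The lowest rescaled count, 150, came without 1 mpk replicate 6. The part of these measures in the calls was not tested; with relative depth as a term in the fit, 528 IDs were called as deposited and 300 after rescaling.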

How the data were processed

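Members, tests and alternatives were chosen with earlier results of these data known. Per the labels' protocols, flash-frozen kidneys gave total RNA by a Qiagen kit, and stranded Illumina libraries were made after removal of ribosomal RNA. The authors deposited FPKM per gene ID; the aligner, the counter, the build and the absolute depth were not given in the sources used here. Columns were matched to samples by library number, and 0 columns were unused.

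log2(FPKM + 0.5) was fitted with limma 3.58.1 in R 4.3.3 (a mean per group, 25 medulla libraries, trended and robust moderation, two-sided, Benjamini-Hochberg), with 50 libraries for the interaction. Rescaling used the 15094 IDs above 0 in all 25 medulla libraries. For the cortex contrast and the interaction it used the 14330 IDs above 0 in all 50 libraries. Relative depth came from low values, of which 96.1% of 52075 lay within 0.1 reads of a whole number of reads. The naming rule took the 2 largest rescaled changes per direction among IDs called on both scales, with a mean of at least 2 FPKM in the higher group and no overlap; 86 rises and 96 falls qualified. The 41 gene and marker lists drawn up could not be applied without gene names. The procedure was tested on simulated data with independent noise and the same spread per ID in every group. That test did not cover unequal spreads or a library-wide shift. No libraries were identical (0 pairs of the 10). Alternatives were pseudocounts of 0.1 and 1, no filter, only the compared groups, a replicate block, relative depth as a term, another scaling and each library left out.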

Additional observations from a re-analysis of the deposited data

Results flagged for a closer look

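In 5 of 50 groups of 5 libraries checked, the highest or lowest value stood apart from the rest by more than 0.71 of the range. For normally distributed values chance alone would mark about 1 in 20 such groups. That rate may not hold for low FPKM values like those flagged. For ENSRNOG00000007552 these were the lowest 1 mpk medulla library at 1.03 FPKM, the lowest enalapril medulla library, listed at 0, and the highest 10 mpk cortex library at 0.596 FPKM. For ENSRNOG00000028985 they were the highest lean cortex library at 3.60 FPKM and the highest 10 mpk cortex library at 0.507 FPKM. The dose difference was called different in medulla and cortex for 22 IDs, by the interaction term of limma.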

How the results depend on the processing

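Leaving out 1 compared library gave 167 to 1649 calls on the deposited values, 150 to 719 on the rescaled values, 103 to 550 on both and 11 to 49 for the difference between tissues. With only the compared groups fitted these counts were 76, 106, 66 and 4. Without the filter 439 IDs were called as deposited and 200 on both scales. Relative depth as a term gave 528 calls as deposited and 10 for the tissue difference, and a pseudocount of 1 gave 34 for the latter. Equal sums without the 6 most abundant IDs replace both scales with 1, and gave 576 calls, against 309 on both. The replicate block gave 107 calls as deposited, 118 rescaled and 74 on both, and 24 for the tissue difference; the 3 numbers shared by the doses did not deviate together (r of -0.27 to 0.07), and 0 of 3 libraries correlated best with their own number. The cause of these shifts was not tested. ENSRNOG00000010932, ENSRNOG00000007552 and ENSRNOG00000013062 kept their dose call under every alternative run on either scale, with the largest adjusted p at 0.0408 (limma). These IDs had been picked for large changes without overlap in the same libraries. Over the alternatives, 80.5% to 97.3% of the rises were lower and 79.3% to 96.2% of the falls higher in obese than in lean vehicle medulla, and 41.6% to 64.9% of the rises and 33.7% to 57.6% of the falls were called the same way in cortex. Absolute depth is unknown, and precision was lowest under 5 FPKM.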
